A study of Mus musculus with 4 samples.

Results

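The genes described are 9 genes of calcium/calmodulin signaling, Calm2, Calm3, Nrgn, Camk2a, Camk2b, Camk2d, Camk2g, Camk4 and Ppp3ca, taken by their symbols from a count table of 29300 genes of the mouse hippocampus. Hippocampal RNA was sequenced from 2 control mice and 2 surgery mice on day 1 after the procedure. The mice were wild-type C57BL/6 males of 7 to 8 months. Both groups received isoflurane anesthesia and the analgesic tramadol, and the surgery mice also received an open tibial fracture fixed with an intramedullary nail, a mouse model of perioperative neurocognitive disorder (PND). The difference between the groups is therefore that of the fracture operation added to anesthesia and analgesia. The RNA came from hippocampal tissue and not from separated cells, so that fewer cells of a type and less RNA per cell cannot be told apart.

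Calmodulin is the small calcium sensor of the cytosol. When calcium enters a neuron through NMDA receptors or voltage-gated channels, calcium-loaded calmodulin activates the kinases CaMKII and CaMKIV and the phosphatase calcineurin. In the hippocampus, CaMKII at the synapse is known for its part in long-term potentiation and memory, CaMKIV for signaling to transcription in the nucleus, and calcineurin for opposing synaptic phosphorylation and for dephosphorylating the NFAT transcription factors. Neurogranin, the product of Nrgn, holds calmodulin in dendritic spines when calcium is low.

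In surgery mice, Calm3, 1 of the calmodulin genes, fell to 0.666 of its level in control mice, the kinase subunits Camk2a and Camk2b fell by 16.7% and 17.2%, and Camk4 rose by 34.2%. The other 5 genes did not pass the test. A gene passed at an adjusted p-value under 0.05 in edgeR's quasi-likelihood test, adjusted over the 17144 genes tested. Of the 9 genes, 1 was higher and 3 were lower in surgery mice, where 13.1% of all genes tested were higher and 12.8% were lower. The median log2 fold change of the 9 genes was -0.01, and that of all genes tested was 0.01. Only Calm3 was also a differentially expressed gene (DEG) by the study's fold changes of at least 1.5 or at most 0.67, which 6.75% of all genes tested met as higher and 2.25% as lower. With libraries scaled by their totals only, these shares were 8.04% and 1.31%, and Calm3, at a log2 fold change of -0.54, was not among the DEGs. Both surgery mice were above both control mice for 4 of the 9 genes (33.2% of all genes tested) and below them for another 4 (32.2% of all genes tested), and Calm2 was the one gene whose groups overlapped. The 9 genes together took 1.34% and 1.28% of all reads counted in control mice, against 1.20% and 1.17% in surgery mice. With each library's trend with GC content and length removed, as described below, Calm3, Camk2a, Camk2b and Camk4 did not pass the test. Of the 9 genes, 0 were then lower and 1 (Nrgn) was higher, where 1.00% of all genes tested were higher and 0.607% were lower.

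**Figure D1:**
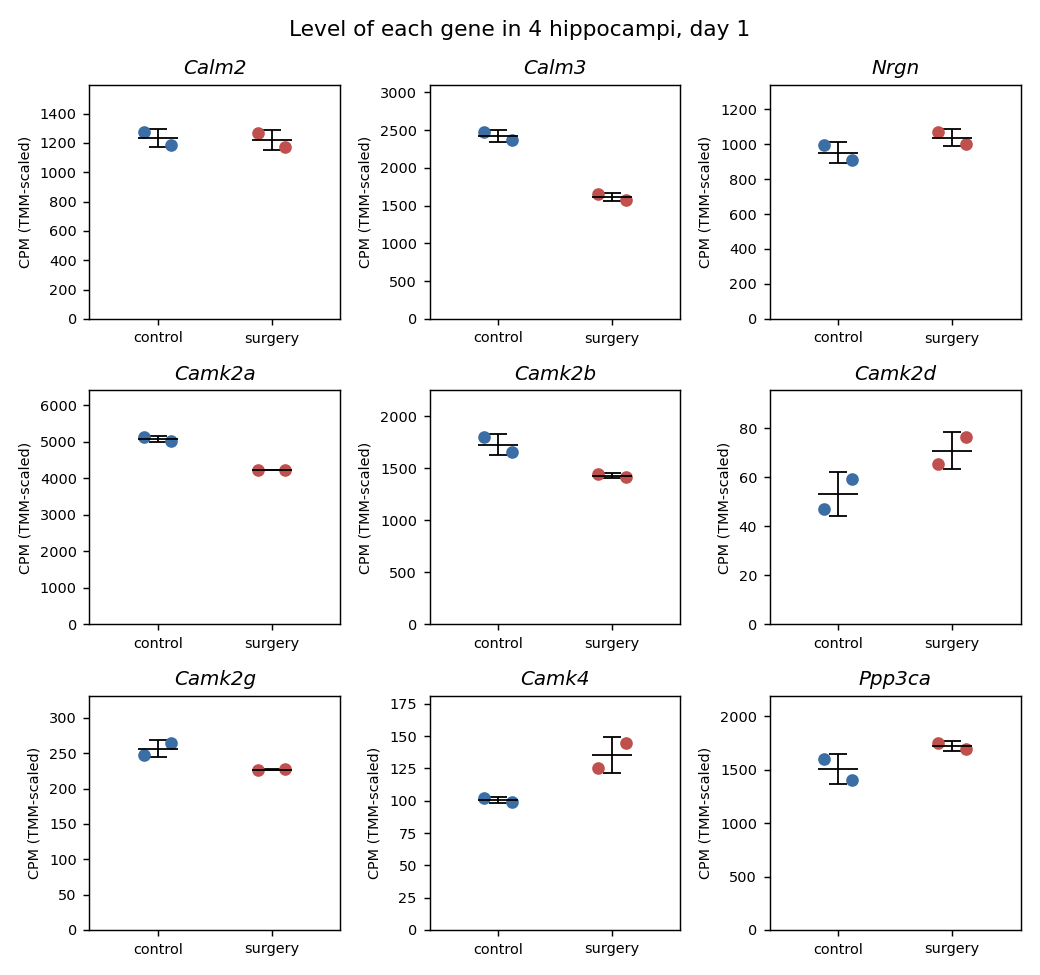
Level of each of the 9 genes in CPM scaled by TMM (vertical axes, each from 0) in the 2 control mice (blue) and 2 surgery mice (red), with the mean (long line) and SD (bars). The surgery mice lie below the control mice for Calm3, Camk2a, Camk2b and Camk2g and above them for Nrgn, Camk2d, Camk4 and Ppp3ca, and the 2 groups overlap for Calm2.

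Levels are given as CPM, the counts scaled to a common library size. The libraries held 15763432 to 18573386 counts, and the 9 genes had between 808 counts (Camk2d in control mouse 1) and 91806 counts (Camk2a in control mouse 2) in a library. Some measured properties of the libraries went along with the groups. The share of mitochondrially encoded genes in a library, rRNA and tRNA genes left out, was 2.82% and 2.52% for control mice. It was 4.44% and 4.48% for surgery mice. The log2 fold change also moved with the GC content of transcripts, from a median of 0.60 in the lowest of 8 equal bins of genes by GC content to -0.35 in the highest. The fold changes were therefore also computed with each library's trend with GC content and length removed, and for the 9 genes and the named pathway genes these values are given as well. Markers of neurons and of hippocampal principal neurons were expressed in every mouse. The 6 neuronal markers summed to 5882 and 5679 CPM in control mice and 5534 and 5262 CPM in surgery mice, which do not overlap, with Gad2 higher, Slc17a7 lower and the other 4 not past the test. The 6 markers of hippocampal principal neurons summed to 991 and 918 CPM in control mice and 1040 and 928 CPM in surgery mice, which overlap, with Neurod6 (0.53) and Zbtb20 (0.44) higher, Wfs1 (-0.70) and Fibcd1 (-0.64) lower and the other 2 not past the test. The 5 choroid plexus markers summed to 126 and 5387 CPM in control mice and 2021 and 3434 CPM in surgery mice, and the 5 oligodendrocyte markers to 5330, 4572, 5067 and 3276 CPM in the same order. The 4 endothelial markers summed to 159 and 162 CPM in control mice and 190 and 240 CPM in surgery mice, with Flt1 (log2 fold change 0.41) and Slco1a4 (0.87) higher. The 5 nuclear RNAs summed to 6670 and 6512 CPM against 6928 and 7736 CPM, with Malat1 (0.67) and Rian higher and Miat lower. The 5 astrocyte markers (1281 and 1151 against 1325 and 1258 CPM) and 5 microglial markers (199 and 188 against 187 and 189 CPM) overlapped in their sums, with Aqp4 (0.73), Gja1 and P2ry12 (0.84) higher and Aldh1l1 lower. No marker of the lists for striatum, thalamus and red blood cells passed the test. With the GC and length trend removed, Rian was the one marker past the test, and it was lower (-0.56, adjusted p = 0.024), against 0.31 without the correction. None of the 53 markers was at 0 in any mouse. The part of these differences in the results was not tested.

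Calm2 and Calm3 encode the same calmodulin protein. Their coding sequences of 447 bases (149 codons, stop included) differed at 78 bases, and at none of the codons did the amino acid differ. The longest run of coding bases that they shared was 17 bases. The first 150 coding bases are shown 5′ to 3′ from the GENCODE transcripts (mm10), since 2 genes for 1 protein had different values here, with the bases that differ between the genes in capitals. They are spliced from exons within chr17:87435819-87446795 (- strand) for Calm2 and chr7:16917613-16923843 (- strand) for Calm3.
Calm2: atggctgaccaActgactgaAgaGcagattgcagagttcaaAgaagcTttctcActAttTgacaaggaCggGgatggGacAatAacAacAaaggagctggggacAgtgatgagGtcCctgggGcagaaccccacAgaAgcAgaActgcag
Calm3: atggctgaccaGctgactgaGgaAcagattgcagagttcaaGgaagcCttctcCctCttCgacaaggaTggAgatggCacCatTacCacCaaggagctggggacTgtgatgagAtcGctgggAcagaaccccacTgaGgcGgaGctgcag
The capitals all stand at the last base of a codon. Over the whole coding sequence, G or C stood at the last base of 66.4% of the codons in Calm3 and 48.3% in Calm2.

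Calm3 (ENSMUSG00000019370, chr7:16915379-16924114, - strand) was measured at 2479 and 2368 CPM in the control mice and at 1650 and 1577 CPM in the surgery mice. Both surgery mice were below both control mice, by far more than the mice of a group differed. Its mean fell from 2424 ± 78.8 CPM to 1613 ± 51.1 CPM (SD, n = 2 mice each), and the log2 fold change was -0.59 ± 0.06 (SE, adjusted p = 0.0045). The fold is next to the limit for a DEG. Without control mouse 1 or surgery mouse 2 the log2 fold change was -0.56 or -0.55, which is short of that limit. With the GC and length trend removed it was -0.25 (adjusted p = 0.10), no longer past the test. Of the 75-base windows of its transcripts, 1.13% also occur in the pseudogene Gm5881.

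Calm2 (ENSMUSG00000036438, chr17:87433412-87446935, - strand) had 1277 and 1188 CPM in the control mice and 1268 and 1172 CPM in the surgery mice. The 2 groups overlapped, and the log2 fold change was -0.01 ± 0.07 (SE, adjusted p = 0.90). Calm2 has the lowest GC content of the 9 genes, 42.7% in its longest transcript against 58.3% in Calm3. Genes in its GC bin had a median log2 fold change of 0.32, and with the trend removed Calm2 was at -0.34 (adjusted p = 0.057). Of its 75-base windows, 2.88% are shared with the pseudogenes Gm15720 and Gm7308, so that a small share of its reads could belong to them.

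Per kilobase of exon sequence, Calm2 was at 870 and 810 CPM in control mice and 864 and 799 CPM in surgery mice, and Calm3 at 1023 and 977 CPM against 681 and 651 CPM. Calm3 thus had the higher level of this pair in both control mice, and Calm2 in both surgery mice. The ratio of Calm3 to Calm2 per kilobase was 1.18 and 1.21 in control mice and 0.788 and 0.815 in surgery mice. The groups do not overlap, and the exact two-sided permutation test gives 0.333, the smallest p that 2 mice against 2 allow. With the longest transcript as the length, the ratio was 1.02 and 1.05 against 0.684 and 0.708. The levels and ratios are not corrected for GC content, and with the GC and length trend removed Calm3 did not fall more than Calm2, with log2 fold changes of -0.25 and -0.34, neither past the test.

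Nrgn (ENSMUSG00000053310, chr9:37544492-37552904, - strand) encodes neurogranin, whose IQ motif is the site that binds calmodulin at low calcium. The 60 coding bases around the motif, at chr9:37546043-37546102 (- strand), are shown because they are what joins this small protein to the rest of the genes, with the codons of the first 2 residues of the motif in capitals.
Nrgn: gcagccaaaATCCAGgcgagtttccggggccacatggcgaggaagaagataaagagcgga
Nrgn had 993 and 910 CPM in the control mice and 1072 and 1002 CPM in the surgery mice. Both surgery mice were above both control mice, but the lower surgery mouse by less than the mice of a group differed, and the log2 fold change of 0.12 ± 0.07 (SE) did not pass the test (adjusted p = 0.24). Its GC content of 58.6% is the highest of the 9 genes and close to that of Calm3. The median of their GC bin was -0.35, and with the trend removed Nrgn was the one of the 9 genes past the test, at 0.47 (adjusted p = 0.043). With this correction 1.00% of all genes tested were higher and 0.607% were lower.

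CaMKII is a holoenzyme of subunits encoded by Camk2a, Camk2b, Camk2d and Camk2g. Its α and β subunits, from Camk2a and Camk2b, are the main ones of forebrain neurons, and the β subunit binds actin. The δ and γ subunits are expressed in many tissues. Each subunit has a regulatory segment with the threonine that the kinase phosphorylates on itself and the stretch that calmodulin binds. The 72 bases that encode it (coding bases 844 to 915) are shown for 3 of the genes, to let the reader see how alike the subunits are where calmodulin acts, with the bases that are not the same in all 3 in capitals. They lie within chr11:5988132-5989014 (- strand), chr3:126797726-126798249 (+ strand) and chr14:20760175-20760456 (- strand) of mm10 and are joined across an intron.
Camk2b: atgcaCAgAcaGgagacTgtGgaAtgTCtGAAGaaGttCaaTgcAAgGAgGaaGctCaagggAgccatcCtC
Camk2d: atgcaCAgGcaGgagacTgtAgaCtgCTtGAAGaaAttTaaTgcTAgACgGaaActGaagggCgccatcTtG
Camk2g: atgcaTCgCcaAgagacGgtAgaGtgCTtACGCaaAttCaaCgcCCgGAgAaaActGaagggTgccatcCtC
In pairs these segments differ at 15 to 21 bases, and 1 or 2 of the 24 codons encode another amino acid. No 75-base window of the 4 genes' transcripts occurs in another gene, so that each could be counted on its own.

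Camk2a (ENSMUSG00000024617, chr18:60925618-60988152, + strand) had 5121 and 5023 CPM in the control mice and 4228 and 4224 CPM in the surgery mice. The gap between the groups was larger than the differences within them, and the log2 fold change was -0.26 ± 0.06 (SE, adjusted p = 0.025). Camk2b (ENSMUSG00000057897, chr11:5969644-6066362, - strand) had 1798 and 1654 CPM in the control mice and 1444 and 1413 CPM in the surgery mice. It too was lower in both surgery mice, with a log2 fold change of -0.27 ± 0.07 (SE, adjusted p = 0.027). Neither Camk2a nor Camk2b reached the fold change of a DEG. Over the 4 fits that each leave out 1 mouse, Camk2a stayed between -0.28 and -0.25 on the log2 scale, and its adjusted p was 0.075 without control mouse 1, 0.071 without control mouse 2, 0.060 without surgery mouse 2 and 0.037 without surgery mouse 1. Camk2b was at -0.22 without control mouse 1 (adjusted p = 0.098) and -0.25 without surgery mouse 2 (adjusted p = 0.067), and it passed the test without either of the other mice. With the GC and length trend removed, the log2 fold change was -0.07 for Camk2a (adjusted p = 0.55) and 0.01 for Camk2b (adjusted p = 0.95).

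Camk2d (ENSMUSG00000053819, chr3:126596302-126846326, + strand) was far less abundant, at 46.9 and 59.5 CPM in the control mice and 65.5 and 76.3 CPM in the surgery mice. Both surgery mice were above both control mice, by less than the mice of a group differed, and the log2 fold change was 0.41 ± 0.13 (SE, adjusted p = 0.063). Without control mouse 2 or surgery mouse 1, Camk2d passed the test (log2 fold change 0.59, adjusted p = 0.023, and 0.50, adjusted p = 0.035). Without control mouse 1 or surgery mouse 2 it was at 0.25 and 0.30 (adjusted p = 0.19 for both). Camk2g (ENSMUSG00000021820, chr14:20734875-20794088, - strand) had 248 and 265 CPM in the control mice and 226 and 227 CPM in the surgery mice. Its log2 fold change of -0.18 ± 0.06 (SE) did not pass the test (adjusted p = 0.078), nor did it under any of the alternatives tried. With the trend removed, the log2 fold changes of Camk2d and Camk2g were 0.15 (adjusted p = 0.57) and -0.04 (adjusted p = 0.72).

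The CPM of the 4 CaMKII genes summed to 7213 and 7001 in control mice and to 5965 and 5940 in surgery mice. The makeup of the sum overlapped between the groups for both main subunits. Per kilobase of exon sequence, Camk2a held 74.6% ± 0.468 of the sum in control mice and 74.4% ± 0.182 in surgery mice (SD, n = 2). Camk2b held 20.8% ± 0.809 and 20.6% ± 0.256. The ratio of Camk2a to Camk2b in CPM was 2.85 and 3.04 in control mice and 2.93 and 2.99 in surgery mice. The share of Camk2d was 0.226% and 0.294% in control mice and 0.381% and 0.447% in surgery mice, and that of Camk2g was 4.19% and 4.61% against 4.64% and 4.68%. Neither overlaps between the groups (exact permutation p = 0.333 for each, the smallest possible). With the longest transcript as the length, the share of Camk2d was 0.547% and 0.716% in control mice and 0.924% and 1.08% in surgery mice, and that of Camk2b was 28.1% and 27.8% on average, with the same overlaps. These sums and shares are not corrected for GC content.

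Camk4 (ENSMUSG00000038128, chr18:32939041-33195767, + strand) encodes CaMKIV, the kinase that phosphorylates CREB in the nucleus. It had 102 and 99.1 CPM in the control mice and 125 and 145 CPM in the surgery mice. It was the one gene of the 9 that rose, by 0.42 ± 0.08 on the log2 scale (SE, adjusted p = 0.015), opposite in direction to Camk2a and Camk2b. The surgery mice were farther apart than the control mice, and without surgery mouse 2 the log2 fold change was 0.32 (adjusted p = 0.038). Without control mouse 2 it was 0.40 with an adjusted p of 0.052. Removing the GC and length trend left the value near the same, at 0.40, with an adjusted p of 0.070. A gene on the opposite strand, 2310026I22Rik, overlaps 72 of its exon bases.

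Ppp3ca (ENSMUSG00000028161, chr3:136670124-136937727, + strand) encodes the α isoform of the catalytic subunit of calcineurin. It had 1605 and 1409 CPM in the control mice and 1754 and 1692 CPM in the surgery mice. Both surgery mice were above both control mice, by less than the control mice differed from each other, and the log2 fold change of 0.19 ± 0.08 (SE) did not pass the test (adjusted p = 0.12). Without control mouse 1 it did, at 0.28 (adjusted p = 0.048), and with each of the other mice left out it was at 0.10 to 0.22 and did not, with the lowest value without control mouse 2 (adjusted p = 0.47). With the GC and length trend removed it was 0.01 (adjusted p = 0.93).

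Levels of different genes were compared per kilobase of exon sequence. In control mice Calm3 was highest (1000 ± 32.5 CPM per kilobase, SD, n = 2), followed by Calm2 (840 ± 42.5), Camk2a (679 ± 9.30), Nrgn (655 ± 40.3), Camk2b (189 ± 11.1), Ppp3ca (151 ± 13.9), Camk2g (40.1 ± 1.87), Camk4 (30.9 ± 0.684) and Camk2d (2.36 ± 0.395). Camk2a and Nrgn overlapped, and no other neighbours in this order did. In surgery mice the order was Calm2 (832 ± 46.2), Nrgn (714 ± 33.7), Calm3 (666 ± 21.1), Camk2a (566 ± 0.427), Ppp3ca (173 ± 4.42), Camk2b (157 ± 2.45), Camk4 (41.5 ± 4.26), Camk2g (35.5 ± 0.0951) and Camk2d (3.15 ± 0.341), with no overlap between neighbours. Calm3 moved from the first place to the third, and the neighbours Camk2b and Ppp3ca, and Camk2g and Camk4, changed places. These levels are not corrected for GC content. With the GC and length trend removed, the log2 fold changes were -0.25 for Calm3 and -0.34 for Calm2, and 0.01 for both Camk2b and Ppp3ca, so that the exchanges of Calm3 with Calm2 and of Camk2b with Ppp3ca do not hold under the correction. The orders also depend on the length used. With the longest transcript in its place, Calm3, Calm2 and Camk2a stood in control mice at 1058, 1023 and 1020 CPM per kilobase, where Calm2 overlapped both of the others, Camk2a stood second in surgery mice, where Calm3 came after Nrgn and overlapped it, Ppp3ca overlapped Camk2b, and Camk2g stayed above Camk4 in both groups. Camk2d was last with either length.

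The plot of fold change against GC content sets each gene beside genes of like composition. Camk2a (53.3%), Camk2b (56.3%), Camk2g (51.8%), Camk2d (43.9%) and Ppp3ca (45.4%) had log2 fold changes that differed by -0.09, -0.02, -0.11, 0.09 and 0.01 from the median of their GC bin. Relative to the median of its bin, Calm2 was at -0.33, Calm3 at -0.24, Camk4 at 0.39 and Nrgn at 0.47. With the trend of each library removed, 0 of the 9 genes were lower, 1 was higher and the median was 0.01, where the median of all genes tested was 0.04.

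**Figure D2:**
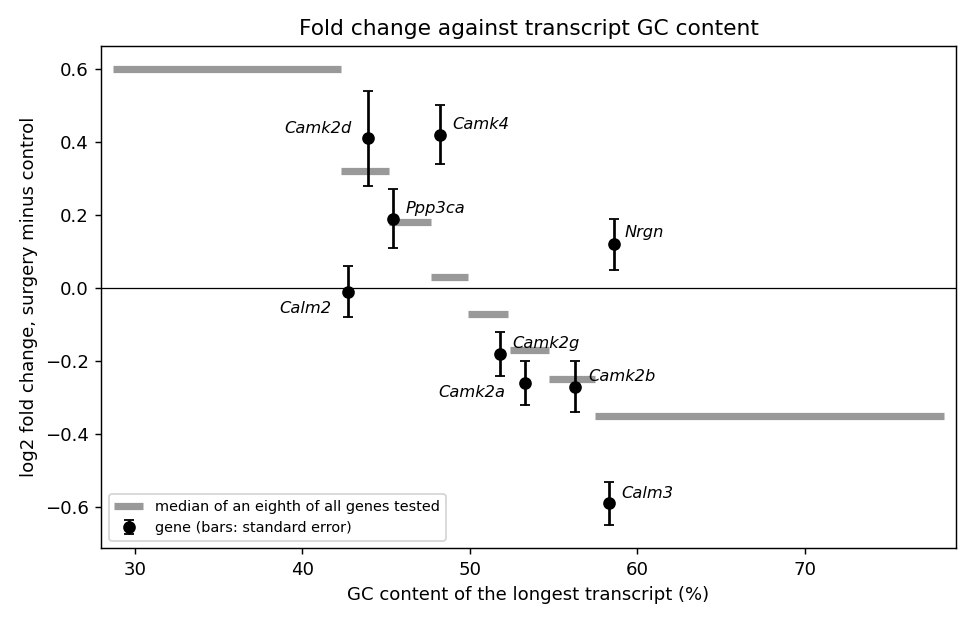
Log2 fold change of surgery against control mice (vertical axis) against the GC content of the longest transcript in percent (horizontal axis) for the 9 genes, with standard errors, over grey lines that give the median fold change of all genes tested in 8 equal bins by GC content. The grey lines go down from 0.60 to -0.35, with Calm3 below and Nrgn above the line at their GC content.

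**Figure D3:**
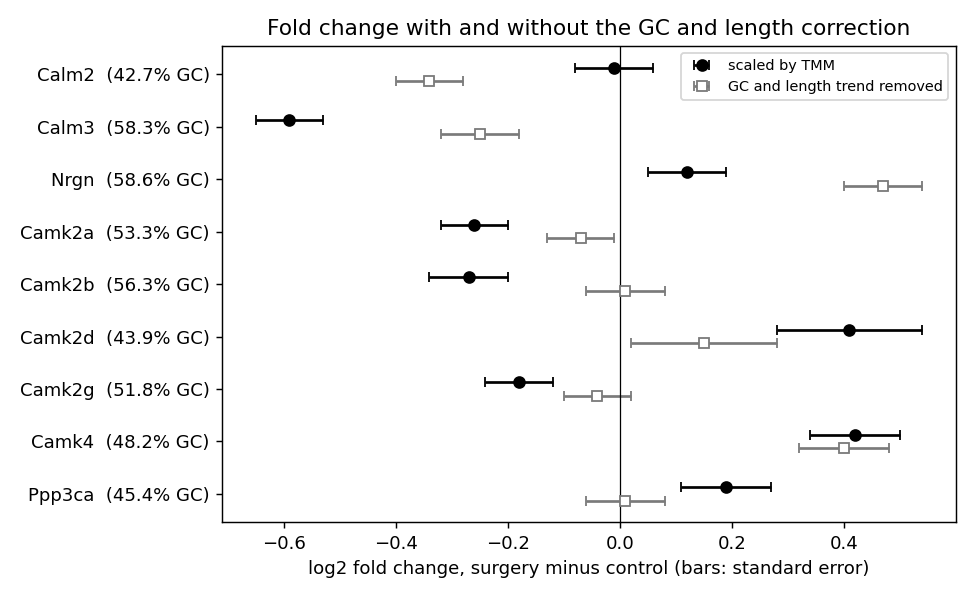
Log2 fold change of each gene (horizontal axis, bars show the standard error) as tested (filled circles) and with each library's GC and length trend removed (open squares), with the GC content of the transcript beside the symbol. Calm3 goes from -0.59 to -0.25, Nrgn from 0.12 to 0.47 and Calm2 from -0.01 to -0.34, while Camk4 stays at 0.42 and 0.40.

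Other genes of the calmodulin, CaMK and calcineurin pathway were read from a list of 49 genes, of which 46 are in the table and 44 were tested. Of these 5 were higher, 15 were lower and 24 did not pass, where 13.1% of all genes tested were higher and 12.8% were lower. The median log2 fold change was -0.13, against 0.01 for all genes tested. By the fold changes of a DEG, 0 were higher and 2 were lower, against 6.75% and 2.25% of all genes tested. With the GC and length trend removed, 1 was higher (Camk2n1), 1 was lower (Itpka) and the median was 0.00, where 1.00% of all genes tested were higher, 0.607% were lower and the median was 0.04.

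Of the 3 other calcineurin subunits tested, 2 were higher (13.1% of all genes tested were). Ppp3r1, the regulatory B subunit, had 548 and 461 CPM in control mice and 670 and 753 CPM in surgery mice (log2 fold change 0.50 ± 0.10 SE, adjusted p = 0.015). It shares 12.3% of its 75-base windows with Wdr92, with which it overlaps on the same strand. Ppp3cb, the β catalytic subunit, had 268 and 238 CPM in control mice and 330 and 339 CPM in surgery mice (0.40 ± 0.07, adjusted p = 0.011). With the trend removed Ppp3r1 was at 0.09 and Ppp3cb at -0.12, and neither passed. The ratio of Ppp3ca to Ppp3cb in CPM was 5.98 and 5.91 in control mice and 5.32 and 4.98 in surgery mice (exact permutation p = 0.333, the smallest possible). The fall of this ratio is not kept with the trend removed, where Ppp3ca was at 0.01 and Ppp3cb at -0.12. Of 5 calcineurin inhibitors and anchors 1 was higher and 1 was lower. Akap5, which anchors calcineurin and protein kinase A at the synapse, rose by 0.45 ± 0.08 (adjusted p = 0.011), and was at 0.20 with the trend removed (adjusted p = 0.19). Cabin1, a calcineurin inhibitor named after its value was seen, was at -0.29 ± 0.07 (adjusted p = 0.029), and at 0.01 with the trend removed. Without control mouse 2 or surgery mouse 1 it did not pass (-0.24, adjusted p = 0.12, and -0.26, adjusted p = 0.083). The inhibitors Rcan1 (-0.36 ± 0.11, adjusted p = 0.052) and Rcan2 (-0.06 ± 0.07, adjusted p = 0.60) did not pass, nor did they with the trend removed, at -0.12 and -0.21. Rcan1 was near the threshold and passed in 5 of the 14 alternatives. It was at -0.52 without surgery mouse 1 (adjusted p = 0.012) and at -0.22 without surgery mouse 2 (adjusted p = 0.21). Of 8 calcineurin targets 2 were lower (12.8% of all genes tested were), among them the transcription factor Nfatc2 (-0.48 ± 0.11, adjusted p = 0.024). Nfatc2 was at -0.40 without control mouse 1 (adjusted p = 0.094), -0.44 without surgery mouse 2 (adjusted p = 0.075) and -0.23 with the trend removed (adjusted p = 0.32).

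Among 11 other CaM kinases, their inhibitors and phosphatases, 1 was higher and 5 were lower, against 13.1% and 12.8% of all genes tested. The 2 genes for CaMKII inhibitor proteins changed in opposite directions. Camk2n1 had 493 and 438 CPM in control mice and 610 and 620 CPM in surgery mice, and it rose by 0.40 ± 0.07 (SE, adjusted p = 0.010). Camk2n1 was higher under every alternative tried, at 0.61 with the GC and length trend removed (adjusted p = 0.029). Camk2n2 had 84.6 and 101 CPM in control mice and 55.4 and 59.4 CPM in surgery mice, a log2 fold change of -0.69 ± 0.10 (adjusted p = 0.0064) that was -0.28 with the trend removed (adjusted p = 0.19). The ratio of Camk2n1 to Camk2a in CPM was 0.0962 and 0.0872 in control mice and 0.144 and 0.147 in surgery mice (exact permutation p = 0.333, the smallest possible). Of the upstream kinases that activate CaMKI and CaMKIV, Camkk1 had 330 and 339 CPM against 242 and 234 CPM (-0.49 ± 0.06, adjusted p = 0.0046), and Camkk2 did not pass (-0.14 ± 0.09, adjusted p = 0.30). With the trend removed, Camkk1 was at -0.24 (adjusted p = 0.075) and Camkk2 at 0.04 (adjusted p = 0.83). Camk1g, a CaMKI isoform, had a log2 fold change of -0.54 ± 0.11 (adjusted p = 0.017). It was -0.40 without control mouse 2 (adjusted p = 0.068) and -0.33 with the trend removed (adjusted p = 0.14).

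Of 14 other calmodulin-dependent enzymes and transcription activators, 1 was higher and 7 were lower, again against 13.1% and 12.8% of all genes tested. Camta1, a calmodulin-binding transcription activator, rose by 0.26 ± 0.06 on the log2 scale (SE, adjusted p = 0.024), and was at 0.22 without control mouse 2 (adjusted p = 0.12), 0.23 without surgery mouse 2 (adjusted p = 0.073) and 0.35 with the trend removed (adjusted p = 0.057). Itpka, the inositol trisphosphate 3-kinase A of dendritic spines, had 276 and 296 CPM in control mice and 173 and 148 CPM in surgery mice. Its log2 fold change of -0.84 ± 0.09 (SE, adjusted p = 0.0045) was the largest fall of the listed genes past the test, and with the trend removed it was -0.44 (adjusted p = 0.048).

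**Figure D4:**
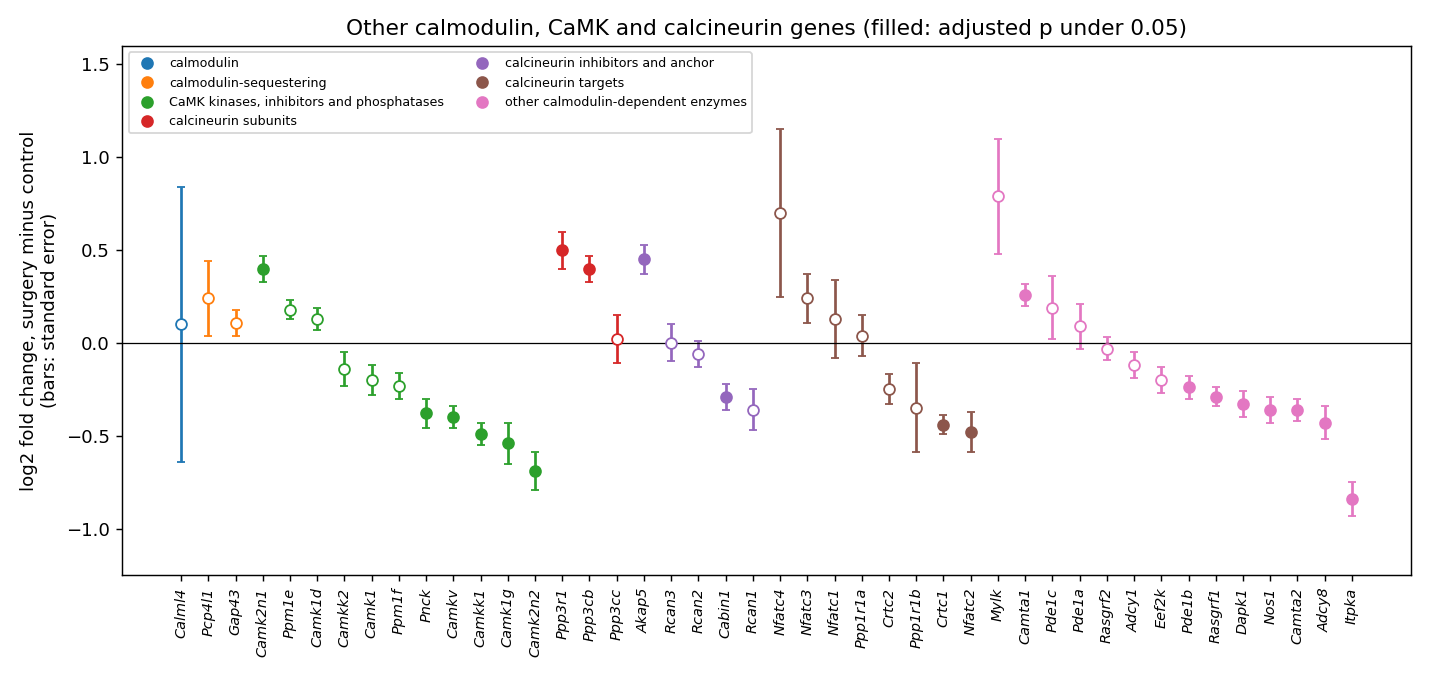
Log2 fold change of surgery against control mice (vertical axis, bars show the standard error) for the 44 other pathway genes tested, grouped by role and colored by group, with filled circles for an adjusted p-value under 0.05. Filled circles stand above 0 for Camk2n1, Ppp3r1, Ppp3cb, Akap5 and Camta1 and below 0 for 15 genes, with Itpka lowest at -0.84.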

How the data were processed

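Hippocampal poly(A) RNA of 2 control and 2 surgery mice was sequenced as paired-end reads, and the authors mapped the reads to mm10. The submitters' notes name HISAT2 2.1.0, Bowtie2 2.2.3, TopHat2 and HTSeq 0.6.0 without their roles. The deposited values used here are counts per gene without normalization; the authors' own columns of scaled means, fold changes and p-values were not used. Whether counting used strand is not stated.

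Counts were filtered (filterByExpr, minimum count 10), scaled by TMM (factors 0.982 to 1.02) and tested in R 4.3.3 with edgeR 4.0.16 (quasi-likelihood F test, condition only, Benjamini-Hochberg adjustment over 17144 genes). CPM are scaled by TMM, and standard errors come from the F statistic. GC content and lengths are from GENCODE M21, which holds 29238 of the identifiers, and coordinates are those of the table. The correction for GC content and length used smooth trends (mgcv 1.9.3) as offsets. Alternatives were RLE factors, totals only, other filters, DESeq2 1.42.0, limma 3.58.1 (voom), the replicate block, thinned counts and leaving out each mouse. The procedure was also run on simulated counts. The changes planted there were larger than those of the 9 genes, so that run does not bear on changes of their size. Replicates differed by more than counting noise (chi-square per degree of freedom 13.4 and 8.45). The p-values rest on the spread between these mice only, estimated for each gene with the help of all genes. The 9 genes and all lists were chosen with earlier results of these data known. The text names, besides the 9 genes, 6 pathway genes whatever their values and the 5 largest rises and 5 largest falls past the test. Cabin1 was added to these after its value was seen. Of the listed genes, 1 is not reported here.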

Additional observations from a re-analysis of the deposited data

How the results depend on the processing

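Calm3 was lower under all 14 alternatives and past the test in 13, the exception being the correction for GC content and length. Of the alternatives, only this correction, alone or with the replicate block, removes the GC trend. Camk2a kept its call in 9 of 14, Camk2b in 10 and Camk4 in 12. This correction left 172 genes higher and 104 lower of all genes tested, against 2250 and 2199 without it, 0 of the 9 genes lower, and 1 pathway gene higher and 1 lower. No filter on low counts left 1315 higher and 1350 lower. With libraries scaled by totals only, and with DESeq2, 2 of the 9 genes were higher (Camk2d and Camk4), where 2651 and 1703 of all genes tested were higher and 1812 and 2084 lower. Same-numbered mice share only a number: their deviations correlated at 0.224 across genes. With the replicate block 2655 genes were higher and 2626 lower, among them 3 of the 9 genes higher (Camk2d, Camk4 and Ppp3ca). With block and correction together, 2 of the 9 genes were higher (Camk4 and Nrgn). Lower were 2, Calm2 (-0.34, adjusted p = 0.00071) and Calm3 (-0.25, adjusted p = 0.0082). In that fit 1504 of all genes were higher and 1090 lower, and 5 pathway genes were higher and 8 lower. The calls with the block rest on pairing mice by number alone. Leaving out each mouse in turn gave 1201 to 2025 genes higher and 1207 to 2080 lower, 1 to 2 of the 9 genes higher, 1 to 3 lower, and 8 to 15 pathway genes lower. Some signs turned. Near 0, Calm2 was at 0.03 with totals only and at -0.09 to 0.05 with each mouse left out, where Rcan2 was at -0.15 to 0.02. Rcan2 passed the test with block and correction together (-0.21, adjusted p = 0.042). With the correction, alone or with the block, Camk2b went from -0.27 to 0.01, Ppp3cb from 0.40 to -0.12, Rian with the correction alone from 0.31 to -0.56, and Camkk2 from -0.14 to 0.04. The cause of these changes was not tested. At the smallest of the 9 genes' counts, 808 reads, the spread between 2 mice and not depth limits precision, and p-values from 2 mice per group rest on a spread estimated over all genes.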
